A study of Mus musculus with 6 samples.

Results

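Transcripts of 10 genes that carry the signal from Gq-coupled receptors to the calcium store were measured in single cells of the mouse amygdala. They were the G protein subunits *Gnaq* and *Gna11*, the phospholipases C *Plcb1*, *Plcb4* and *Plcd4*, the IP3 receptors *Itpr1*, *Itpr2* and *Itpr3*, the ryanodine receptor *Ryr3* and the store pump *Atp2a2*. The genes were chosen by name, for their place in this pathway, with earlier results of these data known. They are 10 of 32285 genes in the deposited matrices. All 10 were found there by symbol and Ensembl identifier.

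Wild-type male C57BL/6N mice were used. NoFC mice were not shocked, FC mice were fear conditioned, NoFR mice were conditioned and not returned for recall, and FR mice were conditioned and underwent recall, with 4 mice in each of the 4 groups. By the paper, recall came a day after conditioning, and NoFR mice stayed in the home cage instead. NoFR mice thus had no session on the day of dissection. The time since shock was longer in NoFR and FR mice than in FC mice. Amygdalae were dissected 90 min after the behavioural session, dissociated with papain while inhibitors of transcription and translation were present, and stained for the astrocyte antigen ACSA-2, an epitope of ATP1B2, and for CD11b, CD45 and O1. Sorted cells of the 16 mice, each mouse marked by a hashtag antibody, were pooled into 3 libraries. The deposited hashtag table lists 8, 4 and 4 mice for libraries 1, 2 and 3. Of 4449 barcodes assigned to a single hashtag, 2993 carried one listed for a mouse of their library. Where the others came from was not tested.

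Astrocytes were barcodes with at least 20 unique molecular identifiers (UMIs, 1 per captured transcript) of *Slc1a2* and *Slc1a3* together and at most 3 of *Vtn* and *Rgs5* together. Pericytes, the contractile cells that wrap capillaries, were barcodes with at least 10 UMIs of *Vtn* and *Rgs5* and at most 5 of *Slc1a2* and *Slc1a3*. These rules took 8757 astrocytes and 2260 pericytes of 13546 barcodes. The libraries held 3557, 2503 and 2697 astrocytes with 27145742 to 36469481 UMIs in sum, and 880, 664 and 716 pericytes with 3538589 to 4417539 UMIs. The median astrocyte had 9891 UMIs and the median pericyte 5006. Levels below are CPM, a gene's UMIs per 1000000 UMIs of all cells of a class in a library, scaled by edgeR's TMM factors unless called plain. A fold between classes is thus one of shares of UMIs and not of transcripts per cell.

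The class names were checked against markers that the rules did not use. All marker levels in this paragraph are plain CPM. The summed level of 8 astrocyte markers was 8068 to 8142 CPM in astrocytes and 733 to 800 CPM in pericytes. Most of the latter was *Atp1b2*, the antigen of the sort, at 666 to 697 CPM. *Atp1b2* stood in pericytes at 78.95 to 85.1% of its astrocyte level, and *Gfap* was at 0 there. The 7 pericyte markers summed to 7068 to 7317 CPM in pericytes and to 43.2 to 51.2 CPM in astrocytes. In pericytes, stromal markers summed to 225 to 258 CPM, endothelial markers to 163 to 177 CPM and smooth muscle markers to 151 to 209 CPM, and 160 pericytes had more than 2 smooth muscle UMIs. Most of the stromal sum was *Col1a2* (199 to 216 CPM) and most of the endothelial sum *Flt1* (124 to 137 CPM). Across the libraries 18 barcode sequences occurred more than once.

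Receptors that couple to Gq or G11 activate phospholipase C-beta, which splits a membrane phosphoinositide into diacylglycerol and the soluble messenger IP3. IP3 opens its receptors in the endoplasmic reticulum and lets stored calcium into the cytosol, and SERCA pumps return it to the store. In astrocytes this route, with the type 2 receptor prominent, underlies the slow calcium signals evoked by noradrenaline, and in pericytes it couples vasoactive receptors to contraction. The alpha-1A adrenoreceptor encoded by *Adra1a* is one of the receptors that feed it.

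Genome positions are those of GENCODE vM21 on GRCm38. *Gnaq* lies at chr19:16132831-16387463 on the plus strand and *Gna11* at chr10:81528724-81545190 on the minus strand. *Plcb1* at chr2:134786067-135475258 and *Plcb4* at chr2:135659011-136014593 lie in tandem on the plus strand, 183.8 kb apart, with 1 noncoding gene and 0 coding genes between them. *Plcd4* at chr1:74542888-74567794 lies on the plus strand and overlaps *Usp37* and *Zfp142* on the minus strand. *Itpr1* at chr6:108213096-108551109 (plus) and *Itpr2* at chr6:146108299-146502223 (minus) share a chromosome, and *Itpr3* lies at chr17:27057304-27122223 (plus). *Ryr3* at chr2:112631355-113217096 (minus) overlaps *Aven* on the plus strand, and *Atp2a2* lies at chr5:122453513-122502225 (minus). The sources used here do not give how reads of overlapping genes and of introns were counted.

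Start-site sequences of 4 members are shown because their levels differed in opposite directions between the classes. Each runs from 250 bases before to 50 bases after a RefSeq start on GRCm38.p6, 5′ to 3′ on the gene's strand, with matches to the motifs searched in capitals. *Plcb1* and *Plcd4* were higher in astrocytes, and the windows lie at chr2:134785914-134786213 (plus) and chr1:74542639-74542938 (plus, the first of 2 starts of *Plcd4*).
Plcb1: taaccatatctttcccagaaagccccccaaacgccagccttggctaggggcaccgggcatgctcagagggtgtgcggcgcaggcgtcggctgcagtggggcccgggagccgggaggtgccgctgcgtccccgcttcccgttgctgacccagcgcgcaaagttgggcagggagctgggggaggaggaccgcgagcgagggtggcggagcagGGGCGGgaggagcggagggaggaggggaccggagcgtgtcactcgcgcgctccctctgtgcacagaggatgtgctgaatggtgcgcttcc
Plcd4: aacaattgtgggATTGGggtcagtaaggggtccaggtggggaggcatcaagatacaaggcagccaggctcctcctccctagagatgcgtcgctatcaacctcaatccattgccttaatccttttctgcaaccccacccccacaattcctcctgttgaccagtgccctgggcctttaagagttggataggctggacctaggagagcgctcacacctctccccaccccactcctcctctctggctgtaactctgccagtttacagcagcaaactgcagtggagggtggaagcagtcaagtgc
*Itpr2* and *Gna11* were higher in pericytes, and the windows lie at chr6:146502174-146502473 (minus) and chr10:81545113-81545412 (minus).
Itpr2: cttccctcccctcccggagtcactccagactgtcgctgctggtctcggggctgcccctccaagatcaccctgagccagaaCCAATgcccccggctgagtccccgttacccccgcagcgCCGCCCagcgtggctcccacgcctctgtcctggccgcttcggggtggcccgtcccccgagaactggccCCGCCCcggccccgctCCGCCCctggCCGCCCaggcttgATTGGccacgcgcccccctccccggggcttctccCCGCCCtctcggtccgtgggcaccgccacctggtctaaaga
Gna11: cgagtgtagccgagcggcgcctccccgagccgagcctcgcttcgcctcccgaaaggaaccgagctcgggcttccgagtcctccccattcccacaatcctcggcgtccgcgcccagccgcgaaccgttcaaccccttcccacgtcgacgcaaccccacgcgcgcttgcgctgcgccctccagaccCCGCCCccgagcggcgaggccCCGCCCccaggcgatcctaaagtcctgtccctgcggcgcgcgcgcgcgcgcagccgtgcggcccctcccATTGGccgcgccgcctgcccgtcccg

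Searched on both strands were the GC-box core GGGCGG, the CCAAT box, the TATA box as TATAAA, the NFI half-site TTGGCA and the SOX core ACAAAG. A match to CCAAT and one to the NFI half-site can share letters. The *Plcb1* window held 1 match to GGGCGG and the first *Plcd4* window 1 match to CCAAT. The *Itpr2* window held 5 matches to GGGCGG and 2 to CCAAT, and the *Gna11* window 2 and 1. The other 3 motifs had no match in these 4 windows. Of the windows not shown, that of *Gnaq*, higher in astrocytes, held 5 matches to GGGCGG at 75% GC. For *Plcb4*, also higher in astrocytes, the first window held 7 at 84% GC and the second 0 at 44.3%. The second *Plcd4* window held 0, and 2 matches to the SOX core, at 48% GC. The *Itpr3* window held 1 match to GGGCGG at 72.3% GC. These counts thus do not sort the members by class. Of 32851 windows of the same length, 35.7% held the GC-box core, 37.4% the CCAAT box, 13.6% the TATA box, 14.1% the NFI half-site and 18.7% the SOX core. GC content was 69.7% for *Plcb1*, 55.3% for *Plcd4*, 73.3% for *Itpr2* and 75% for *Gna11*, beside a median of 52.7% over all windows. A match is a run of letters and no evidence of binding.

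The first question was how astrocytes and pericytes of the same libraries divide the pathway. *Plcb1*, *Plcd4*, *Gnaq*, *Plcb4* and *Atp2a2* were higher in astrocytes, and *Itpr1*, *Itpr2* and *Gna11* were higher in pericytes. *Ryr3* did not differ by the test, and *Itpr3* was too sparse to be tested in the reported fit. With edgeR's quasi-likelihood test on summed counts, library as a block and Benjamini-Hochberg adjustment over 15361 genes, 8 of the 9 members tested passed 0.05, with 5 higher and 3 lower in astrocytes. The share of all genes tested that passed was 79.7%, so the number of members called was near the background and the sizes carry the description. For each of the 8, the 3 astrocyte values and the 3 pericyte values did not overlap, as for 82.2% of all genes tested.

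The G protein subunits moved in opposite directions. *Gnaq*, which encodes the alpha subunit of Gq, was at 324, 331 and 323 CPM in astrocytes of libraries 1, 2 and 3 and at 116, 125 and 125 CPM in pericytes. It was 2.67-fold higher in astrocytes (log2 fold change 1.42, SE 0.055, adjusted p = 1.29e-24), in 16 of 16 mice. *Gna11*, which encodes the closely related alpha subunit of G11, was at 39.0, 34.1 and 37.2 CPM in astrocytes and at 125, 119 and 116 CPM in pericytes. It was 3.26-fold higher in pericytes (log2 fold change −1.71, SE 0.061, adjusted p = 6.73e-26), and no mouse had the higher value in astrocytes. Counts of mice here and below rest on hashtag calls that were weak in astrocytes. They use part of the same cells and are no check independent of the libraries.

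*Plcb1* had the largest class difference of the members tested. This phospholipase C-beta, a direct effector of Gq, was at 882, 987 and 923 CPM in astrocytes and at 8.10, 7.05 and 9.40 CPM in pericytes, a log2 difference of 6.82 (SE 0.094, adjusted p = 3.14e-40). *Plcd4*, a phospholipase C-delta that calcium itself can activate, was at 212, 228 and 230 CPM in astrocytes and at 2.34, 2.87 and 2.72 CPM in pericytes, a log2 difference of 6.40 (SE 0.116, adjusted p = 3.84e-36). Both were higher in astrocytes in 16 of 16 mice. *Plcb4*, the other phospholipase C-beta among the members, was at 267, 295 and 268 CPM in astrocytes and at 174, 177 and 169 CPM in pericytes. Its difference was 1.60-fold (log2 0.68, SE 0.052, adjusted p = 6.31e-15).

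The pericyte values of *Plcb1* and *Plcd4* rested on 103 and 33 UMIs over the 3 libraries and were within the range that most of the astrocyte markers reached in pericytes. On plain CPM, *Plcb1* stood in pericytes at 0.843 to 1.18% and *Plcd4* at 1.26 to 1.48% of the astrocyte level. Over the same libraries *Aqp4*, the astrocyte water channel, stood at 0.740 to 1.30%, the gap junction gene *Gja1* at 0.651 to 1.39%, *Slc4a4* at 0.680 to 0.975%, *Aldoc* at 1.04 to 1.66%, *Ntsr2* at 1.55 to 2.27% and *Fgfr3* at 1.63 to 2.36%. Of the same marker list, *Atp1b2* stood far above this range, at 78.95 to 85.1%, and *Gfap* was at 0. Whether pericyte *Plcb1* and *Plcd4* are a background of astrocyte transcripts was not tested. Their folds rest on these low pericyte counts.

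The IP3 receptors were higher in pericytes. *Itpr1*, the type 1 receptor, was at 38.7, 38.5 and 39.6 CPM in astrocytes and at 582, 580 and 566 CPM in pericytes, 14.8-fold higher in the latter (log2 fold change −3.89, SE 0.052, adjusted p = 1.12e-40). *Itpr2*, the type 2 receptor, was at 273, 284 and 272 CPM in astrocytes and at 558, 566 and 511 CPM in pericytes, 1.97-fold higher in pericytes (log2 fold change −0.98, SE 0.048, adjusted p = 3.82e-21). As counts, *Itpr2* gave 23450 UMIs in 8757 astrocytes and 6851 UMIs in 2260 pericytes. Neither receptor was higher in astrocytes in any of 16 mice. *Itpr3*, the type 3 receptor, gave 2 UMIs in astrocytes, both in library 1, and 16 UMIs in pericytes. Per UMI sequenced the pericyte rate was 62.6 times the astrocyte rate, with an exact 95% interval of 14.7 to 561 for counting error only.

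Astrocyte *Itpr1* stood at 5.63 to 6.06% of its pericyte level on plain CPM. Pericyte transcripts stood lower in astrocytes, with *Kcnj8*, *Abcc9*, *Higd1b*, *Ndufa4l2* and *Anpep* at 0.0224 to 0.0937% and *Cspg4* at 0.340 to 0.416% of the pericyte level, and *Notch3* at 3.70 to 4.19%. *Itpr1* in astrocytes was above the level at which 7 of 7 pericyte markers appeared there. These markers gave no common level, with a UMI of *Notch3* in 28.6% and of *Cspg4* in 2.72% of astrocytes. Whether astrocyte *Itpr1* is in part a background of pericyte transcripts was not tested.

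*Atp2a2*, which encodes the store pump SERCA2, was at 388, 399 and 392 CPM in astrocytes and at 267, 237 and 239 CPM in pericytes. It was 1.58-fold higher in astrocytes (log2 fold change 0.66, SE 0.052, adjusted p = 1.38e-14) and higher in 15 of 16 mice. The gene of another store pump, *Atp2a3*, is no member and went the other way, with means of 0.429 CPM in astrocytes and 374 CPM in pericytes. *Ryr3*, a ryanodine receptor that releases store calcium, was at 1.77, 1.57 and 1.41 CPM in astrocytes and at 2.34, 1.57 and 0.9896 CPM in pericytes. The classes overlapped, and the log2 difference was −0.05 with an SE of 0.41 (adjusted p = 0.912), so a difference was not detectable at this depth.

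**Figure D1:**
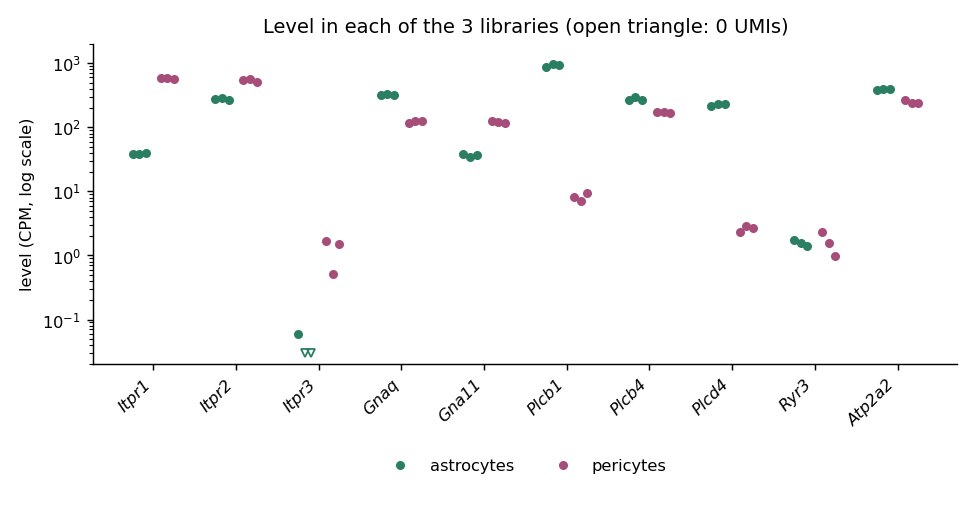
CPM (log axis) of the 10 genes in astrocytes and pericytes, 1 point for each of the 3 libraries, with open triangles for 0 UMIs. Points of the classes lie apart for every gene but Ryr3, with Plcb1 and Plcd4 far above in astrocytes and Itpr1 in pericytes.

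**Figure D2:**
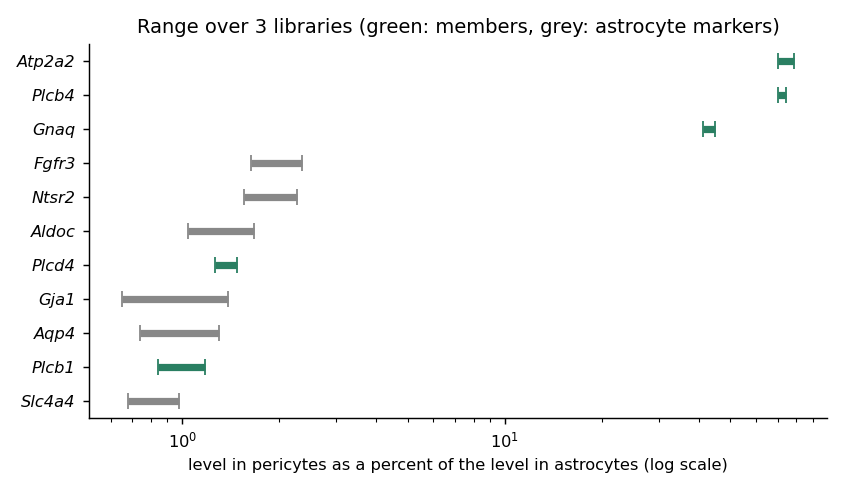
Level in pericytes as a percent of the level in astrocytes (log axis, plain CPM), each bar from the lowest to the highest of 3 libraries. Shown are the members higher in astrocytes (green) and the astrocyte markers other than Atp1b2 and Gfap (grey). Plcb1 and Plcd4 lie among the markers, while Gnaq (41.1 to 44.7%), Plcb4 (70.5 to 74.3%) and Atp2a2 (70.2 to 78.7%) lie far above them.

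The share of cells with at least 1 UMI followed the same order after each cell was thinned to 3000 UMIs, which kept 8216 astrocytes and 2103 pericytes. *Itpr1* was detected in 9.62% of astrocytes and 79.2% of pericytes, and *Itpr2* in 50.0% and 76.8%. Without thinning, at the unequal median depths given above, the values were 23.3% and 88.5% for *Itpr1* and 80.3% and 87.1% for *Itpr2*. *Plcb1* was detected in 80.5% of thinned astrocytes and 2.52% of thinned pericytes (92.1% and 4.16% unthinned) and *Plcd4* in 43.7% and 0.713% (78.5% and 1.46%). In unthinned pericytes *Aqp4* was found in 2.57%, *Fgfr3* in 3.76% and *Gja1* in 7.04% of cells. The pericyte share of *Plcd4* lay below those of these markers, and that of *Plcb1* between those of *Fgfr3* and *Gja1*.

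*Gnaq* was detected in 56.0% of thinned astrocytes and 30.9% of thinned pericytes, *Gna11* in 9.17% and 31.0%, *Plcb4* in 49.3% and 35.0% and *Atp2a2* in 64.3% and 50.9%. Unthinned, the shares were 85.0% and 43.9% for *Gnaq*, 27.1% and 45.2% for *Gna11*, 78.9% and 48.5% for *Plcb4* and 89.1% and 65.5% for *Atp2a2*. *Ryr3* was seen in 0.463% and 0.571% of thinned cells (1.38% and 0.885% unthinned). *Itpr3* was seen in 0 of 8216 thinned astrocytes, a count that still permits 0.0365% of cells with a UMI, and in 0.571% of pericytes (0.0228% and 0.664% unthinned). For *Gna11* and *Itpr1* the order was pericyte above astrocyte both before and after thinning.

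Within each set of related members the classes held the genes in different proportions, a comparison that needs no scaling between classes. Of *Itpr1*, *Itpr2* and *Itpr3* UMIs, *Itpr2* made up 87.6, 88.1 and 87.3% in astrocytes of the 3 libraries and 48.9, 49.4 and 47.4% in pericytes. The means were 87.6% ± 0.396 and 48.5% ± 1.02 (SD, n = 3 libraries), a difference of 39.1 points. Of *Gnaq* and *Gna11* UMIs, *Gnaq* made up 89.3, 90.7 and 89.7% in astrocytes and 48.3, 51.2 and 51.8% in pericytes. The difference was 39.4 points, from 89.9% ± 0.712 to 50.5% ± 1.91 (SD, n = 3). The share of *Itpr2* and that of *Gnaq* were each near an even split with *Itpr1* or *Gna11* in pericytes and much higher in astrocytes.

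Of *Plcb1* and *Plcb4* UMIs, *Plcb1* made up 76.8, 77.0 and 77.5% in astrocytes and 4.46, 3.84 and 5.27% in pericytes, a difference of 72.5 points. The means were 77.1% ± 0.371 and 4.52% ± 0.717 (SD, n = 3), and the pericyte share included the low *Plcb1* counts above. *Plcb3*, another phospholipase C-beta and no member, was left out of this share. Its means were 23.8 CPM in astrocytes and 15.6 CPM in pericytes. All 3 differences had the same sign in 3 of 3 libraries. The exact sign permutation test over 3 libraries gave p = 0.25 for each, which is the smallest it can give. By mouse, the astrocyte share was above the pericyte share in 16 of 16 mice for each set of genes, and the ranges did not overlap. These mouse values share the limit of the weak hashtag calls in astrocytes. The *Itpr2* share ran from 85.1 to 95.1% over mice in astrocytes and from 36.9 to 56.7% in pericytes, the *Gnaq* share from 87.8 to 95.03% and from 30.8 to 57.3%, and the *Plcb1* share from 74.3 to 80.1% and from 0 to 15.2%.

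**Figure D3:**
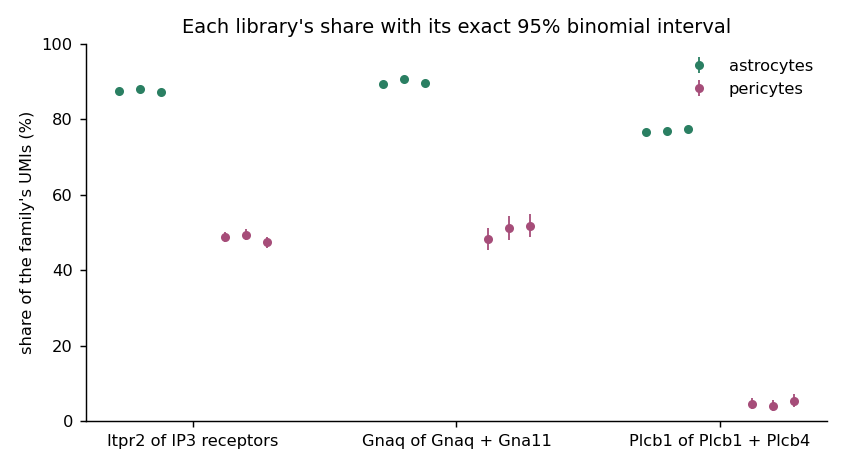
Percent of UMIs contributed by Itpr2 (of Itpr1, Itpr2 and Itpr3), Gnaq (of Gnaq and Gna11) and Plcb1 (of Plcb1 and Plcb4). Astrocytes are green and pericytes purple, with 1 point for each of the 3 libraries and its exact 95% binomial interval. In each set of genes the 3 astrocyte values sit above the 3 pericyte values.

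Around the members, 121 other genes of the pathway were taken in 8 lists by role. Of these, 91 had enough counts, 35 were higher and 44 lower in astrocytes, and 12 did not pass. The share called, 86.8%, stood beside 79.7% of all genes, and the median log2 difference was −0.18 beside 0.10. Of 13 tested Gq-coupled receptors, 6 were higher and 7 lower in astrocytes, with a median of −2.29. *Hrh1*, the histamine H1 receptor, was at 68.9, 75.9 and 76.0 CPM in astrocytes and at 0, 1.31 and 0.742 CPM in pericytes (log2 difference 6.83), and *Grm5*, the metabotropic glutamate receptor 5, had means of 30.3 and 0.671 CPM (5.39). *Tbxa2r*, the thromboxane receptor, had means of 0.308 and 244 CPM (−9.61). Pericyte *Hrh1* and *Grm5* rested on 8 and 9 UMIs, at 1.01 and 2.73% of the plain astrocyte level, near the range of most astrocyte markers. Neither of 2 other Gq family subunits was tested.

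Store release, refilling and buffer genes were mostly lower in astrocytes, with 1 higher, 12 lower and 4 not called of 17 tested (median −0.89). *Trpc4*, a cation channel of the plasma membrane, had means of 0.260 CPM in astrocytes and 405 CPM in pericytes (−10.58). *Casq2*, a calcium buffer inside the store, had 0.150 and 195 CPM (−10.24), and *Atp2a3*, which encodes SERCA3, had 0.429 and 374 CPM (−9.72). Among 19 genes of IP3 metabolism and IP3 receptor partners, 7 were higher, 8 lower and 4 not called. *Mrvi1*, a partner of the type 1 receptor in smooth muscle, had 0.131 and 177 CPM (−10.34). These low astrocyte means rested on 11 to 37 UMIs each.

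Of 9 other phospholipases C, 5 were higher, 3 lower and 1 not called. *Plcg2*, at a mean of 3.204 CPM in astrocytes, had 1 pericyte UMI (rate ratio 35.0, exact 95% interval 6.23 to 1388). Of 7 plasma membrane extrusion genes, 3 were higher and 4 lower. *Atp2b2*, which encodes the calcium pump PMCA2, had means of 126 and 1.11 CPM (log2 6.82). The latter came from 14 UMIs at 1.02% of the plain astrocyte level, within that range of most astrocyte markers. Mitochondrial uptake genes were 5 higher, 2 lower and 1 not called, and the diacylglycerol branch was 8 higher, 8 lower and 2 not called. In that branch *Rasgrp1*, a Ras activator that binds diacylglycerol, had a mean of 11.9 CPM in astrocytes and 2 pericyte UMIs (ratio 64.6, 17.8 to 534).

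The next comparison asked whether the pathway differs between astrocytes with and without a transcript of *Adra1a*. *Adra1a*-positive astrocytes (at least 1 UMI) were matched to negative astrocytes of the same library with a total UMI count within 5%, which gave 1166, 862 and 928 pairs from 1200, 909 and 1008 positive cells. The positive cells without a match were left out. *Adra1a* itself was used to split the cells and is no result. Of 9 members tested over libraries, *Itpr1*, *Itpr2*, *Plcb1* and *Plcb4* were higher in positive cells (edgeR, adjusted over 13945 genes). The share of all genes called was 17.2%. All 4 differences were small, and all 4 lost their call once the share of ribosomal protein transcripts was matched as well.

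*Itpr1* in positive cells was at 42.1, 38.5 and 43.0 CPM, against 32.7, 33.6 and 34.0 CPM in the negative cells (log2 difference 0.30, SE 0.066, adjusted p = 0.000105). *Plcb1* in positive cells was at 907, 950 and 909 CPM, against 809, 885 and 841 CPM (0.13, SE 0.024, adjusted p = 6.61e-06). *Plcb4* in positive cells was at 267, 286 and 267 CPM, against 240, 266 and 239 CPM (0.14, SE 0.031, adjusted p = 0.000206). For these 3, for *Itpr2* and for the uncalled *Gnaq* and *Atp2a2* the 3 positive values lay above the 3 negative values, and 25.7% of all genes tested had no overlap in either direction. *Itpr2* was at 263, 282 and 272 CPM against 255, 256 and 236 CPM (0.13, SE 0.032, adjusted p = 0.00125).

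The other members did not pass. The log2 difference was 0.07 (SE 0.030, adjusted p = 0.0910) for *Gnaq*, 0.07 (SE 0.029, adjusted p = 0.108) for *Atp2a2*, 0.02 (SE 0.033, adjusted p = 0.734) for *Plcd4* and −0.10 (SE 0.068, adjusted p = 0.347) for *Gna11*. *Ryr3* had 52 and 53 UMIs in positive and negative cells (log2 −0.05, SE 0.34, adjusted p = 0.951), and *Itpr3* 1 and 1. By mouse, where groups of cells were smaller, the level was higher in positive cells in 5 of 16 mice for *Itpr1*, 8 for *Itpr2*, 10 for *Plcb1* and 11 for *Plcb4*.

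The matched cells differed in ribosomal protein transcripts, which made up 1.21, 1.14 and 1.13% of UMIs in positive and 1.70, 1.53 and 1.54% in negative cells. Of 93 ribosomal protein genes tested, 81 were lower in positive cells and 0 higher. Median UMIs, genes and mitochondrial share were similar, at 3586 to 3680 genes and 1.97 to 2.02% mitochondrial UMIs in positive cells and 3600 to 3680 genes and 1.95 to 2.01% in negative cells. In an alternative added after seeing the data, negative cells were also matched to within 0.2 points of ribosomal share, leaving 1119, 807 and 869 pairs at shares of 1.14 to 1.21% in both arms. In that fit 0 of 9 members were called, 0 had an unadjusted p under 0.05, and 26 of 13632 genes were called.

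After that match the log2 difference was 0.07 (SE 0.066, adjusted p = 0.917) for *Itpr1*, −0.0085 (SE 0.030) for *Itpr2*, −0.037 (SE 0.022) for *Plcb1* and −0.026 (SE 0.029) for *Plcb4*. The SE of each was close to that before the match. Without the match, cells with at least 2 *Adra1a* UMIs gave log2 differences of 0.48 for *Itpr1*, 0.18 for *Itpr2*, 0.13 for *Gnaq*, 0.22 for *Plcb1* and 0.23 for *Plcb4*, all 5 called. With cells thinned to 3000 UMIs, *Plcb1* was the 1 member called (0.13, adjusted p = 0.00395), and DESeq2 called *Plcb1* and *Plcb4*. With mice as replicates, 0 of 6 members tested and 0 of 5075 genes were called by edgeR, while 0 members and 520 genes had an unadjusted p under 0.05.

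Among the other pathway genes, 76 were tested, 17 were higher and 3 lower in positive cells. The share called was 26.3% beside 17.2% of all genes, of which 982 were higher and 1421 lower. The median log2 difference was 0.11 beside 0.001 for all genes. Among receptors, *Grm5* (0.34) and *Hrh1* (0.19) were higher. Among genes of IP3 metabolism and IP3 receptor partners, the IP3 phosphatase *Inpp5a* (0.30), the IP3 kinase *Itpkb* (0.23), *Ahcyl2* (0.14) and *Bcl2* (0.12) were higher, and among phospholipases *Plce1* (0.16). In the diacylglycerol branch *Dgki* (0.38), the lipase *Dagla* (0.24), the protein kinase C genes *Prkca* (0.19) and *Prkce* (0.18) and *Dgkb* (0.12) were higher. The others were *Stim1*, the store calcium sensor (0.14), the pump gene *Atp2b2* (0.14), the mitochondrial genes *Micu3* (0.14) and *Mcu* (0.09), and *Slc8a3*, a sodium-calcium exchanger, at 0.85 with 104 against 58 UMIs. The ones lower were *Calr*, a store calcium buffer (−0.13), and the mitochondrial genes *Vdac1* (−0.16) and *Smdt1* (−0.19). With ribosomal share matched too, 1 of the pathway genes was called, *Dgki*, a diacylglycerol kinase (0.39, adjusted p = 0.0487).

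**Figure D4:**
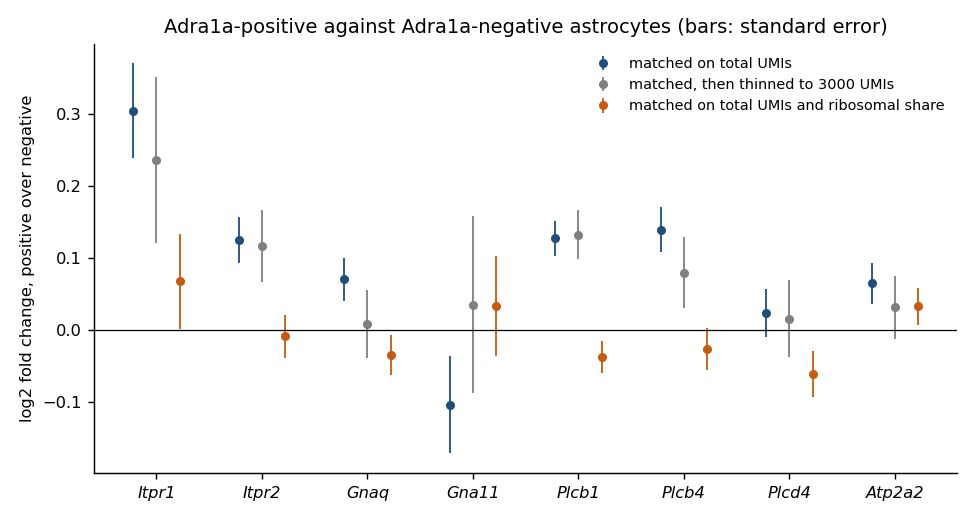
Log2 difference between Adra1a-positive and Adra1a-negative astrocytes for 8 members, with SE bars, matched on total UMIs (blue), thinned to 3000 UMIs after matching (grey) and matched on ribosomal share too (orange). Itpr1, Itpr2, Plcb1 and Plcb4 lie above 0 in the first match and lie closer to 0 in the orange values.

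The behavioural groups were compared over mice. Hashtags assigned 1893 astrocytes and 879 pericytes to the 16 mice, 45 to 228 astrocytes and 38 to 106 pericytes a mouse. Of 4449 singlets of all classes, 2993 belonged to listed mice. The other singlets carried a hashtag listed for no mouse of their library. The sums by class and by *Adra1a* status took barcodes whatever their hashtag. Hashtag counts of astrocytes were low, with medians of 4 UMIs for the top hashtag and 2 for the next (18 and 3 in pericytes). The strict hashtag rule kept 274 astrocytes. How often astrocytes were given to the wrong mouse was not tested. An absence of calls in astrocytes thus cannot show that the groups were alike. Over the 6 pairs of the 4 groups, which share groups with each other, 0 of 48 tests of 8 members in astrocytes passed (smallest adjusted p = 0.918), and 5 had an unadjusted p under 0.05. Of all gene-by-pair tests in astrocytes 0% passed and 4.13% had an unadjusted p under 0.05. In pericytes 0 of 36 tests of 6 members passed (smallest adjusted p = 0.158) and 3 had an unadjusted p under 0.05, beside 0.271% and 6.37% of all gene-by-pair tests. DESeq2 called 0 members in either class. Libraries and groups are partly confounded, since not every library holds every group. The fit held library as a term, so its log2 differences need not equal those of the group means given below.

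In pericytes, *Itpr1* was at 552, 555, 548 and 541 CPM in the NoFC mice and at 810, 632, 677 and 633 CPM in the FC mice. The 4 FC values lay above the 4 NoFC values, a separation that 3.2% of the pericyte genes tested showed in either direction for this pair. The means were 549 ± 6.30 and 688 ± 84.1 CPM (SD, n = 4 mice each), a log2 difference of 0.32 (SE 0.116, unadjusted p = 0.00691, edgeR adjusted p = 0.978). The NoFC mice had 224166 to 575139 pericyte UMIs each. At that depth counting error alone exceeds the NoFC SD, so this SD understates the spread. The two-sided exact permutation test gave p = 0.0286, the smallest that 4 against 4 allows and 1 of 36 member tests made in pericytes. The difference was 0.38 within library 1 and 0.26 within library 2, and 0.19 without FC mouse 1, the highest of its group.

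*Plcb4* in pericytes was at 248, 214, 211 and 143 CPM in NoFC mice and at 116, 139, 147 and 186 CPM in NoFR mice. The groups overlapped, with means of 204 ± 43.8 and 147 ± 29.0 CPM and a log2 difference of −0.62 (SE 0.202, unadjusted p = 0.00334, adjusted p = 0.158). The difference was −0.86 within library 1 and 0.22 within library 3. Without NoFC mouse 4, the lowest of its group, it was −1.02 (adjusted p = 0.00441). That mouse was the only NoFC mouse listed for library 3, so leaving it out also removed the comparison within that library. The FC mean was 192 ± 17.3 CPM, and NoFR against FC gave −0.55 (unadjusted p = 0.0162), −0.36 without FR mouse 4 and −0.35 with strict hashtags. FR mice stood at 158 ± 69.5 CPM.

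In astrocytes, *Plcb1* was at 1013, 769, 919 and 946 CPM in NoFC mice, 959, 930, 792 and 912 CPM in FC mice, 798, 743, 856 and 766 CPM in NoFR mice and 789, 868, 984 and 923 CPM in FR mice. NoFR had the lowest mean, 791 ± 49.2 CPM, against 912 ± 103, 898 ± 73.3 and 891 ± 82.9 CPM for NoFC, FC and FR. The groups overlapped, and the log2 difference was −0.21 against NoFC (unadjusted p = 0.0227) and −0.22 against FC (unadjusted p = 0.0309), and 0.18 for FR over NoFR (unadjusted p = 0.0445). The NoFR difference from NoFC was −0.21 within library 1 and −0.22 within library 3, but it was −0.018 when mice were assigned at a hashtag quantile of 0.95. The FR over NoFR difference was 0.057 at that quantile. It was 0.79 with strict hashtags, a fit that few mice entered. With library as a term, that value came down to FR mouse 4 against NoFR mouse 3, with 12 and 10 astrocytes. It is thus no like comparison with the other values. None of these pairs of groups passed the adjustment in the reported fit.

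*Atp2a2* in astrocytes was at 298, 299, 377 and 338 CPM in NoFC mice and at 394, 387, 365 and 360 CPM in FC mice, which overlapped. The means were 328 ± 37.7 and 377 ± 16.5 CPM, a log2 difference of 0.19 (unadjusted p = 0.0453), at 0.39 within library 1 and −0.056 within library 2. Without NoFC mouse 3, the highest of its group, it was 0.34, and at a hashtag quantile of 0.95 it was 0.11. That mouse was the only NoFC mouse listed for library 2, so leaving it out also removed the comparison within that library. FR mice stood at 377 ± 17.8 CPM (0.19 over NoFC, unadjusted p = 0.0449), with 0.37, −0.084 and 0.17 within libraries 1, 2 and 3 and 0.30 without NoFC mouse 3. The exact permutation test gave p = 0.0857 for these pairs of *Plcb1*, *Plcb4* and *Atp2a2*.

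A test of the difference between classes, added after seeing the data, found 0 of 48 tests of 8 members past the adjustment, and 3 with an unadjusted p under 0.05. All 3 were of *Plcb1*, whose pericyte counts were low and could not be told apart from background. Of all gene-by-pair tests, 5.59% had an unadjusted p under 0.05 and 0.046% passed the adjustment. The difference between pericytes and astrocytes in the FC over NoFC difference of *Itpr1* was 0.17 on the log2 scale (SE 0.243, unadjusted p = 0.478).

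**Figure D5:**
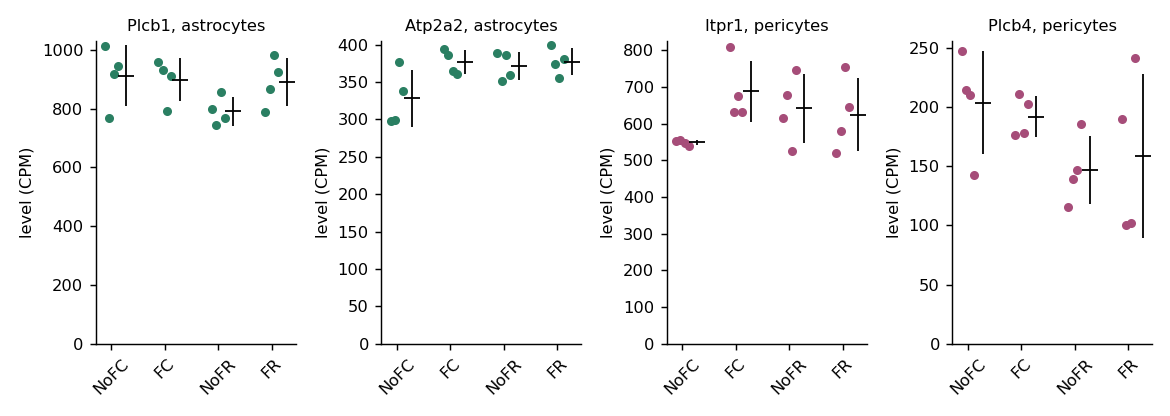
CPM by mouse in the 4 behavioural groups for Plcb1 and Atp2a2 in astrocytes and Itpr1 and Plcb4 in pericytes, 1 point per mouse with the mean and SD of 4. The groups overlap, except that for pericyte Itpr1 the 4 FC mice lie above the 4 NoFC mice, as 3.2% of pericyte genes do in either direction.

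Across the 16 mice, with library means removed, the genes whose astrocyte level was most like that of *Atp2a2* were *Pigk* (Pearson's r = 0.86), *Lsm1* (0.85) and *Slc25a27* (0.83), of 6897 genes with at least 20 CPM. For *Gnaq* they were *Slc25a26* (0.85), *Zyg11b* (0.83) and *Ppp2r2b* (0.83). The points share the hashtag assignment and the depth of each mouse, and these are descriptions of 16 points. *Lsm1*, *Slc25a27* and *Slc25a26* lay close to the cut of 20 CPM, with means of 27.3, 22.6 and 20.3 CPM. Each r is among the highest of a search over 6897 genes. Whether it exceeds what unrelated genes would reach in such a search was not tested.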

How the data were processed

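The authors deposited UMI counts per gene and barcode for 3 libraries, used here without normalization by them. The submitters' processing notes name Cell Ranger 3.0 and build mm10, while the matrix headers name Cell Ranger 7.0.0. The members and the gene lists were chosen with earlier results of these data known. Classes were cut by marker UMIs. The reported sums by class and by *Adra1a* status kept barcodes called doublets by hashtag, so there only the class thresholds acted on doublets. An alternative left hashtag doublets out and held 539, 391 and 451 pericytes and 3048, 2048 and 2330 astrocytes in libraries 1, 2 and 3. The fits by mouse took singlets only. Barcodes with under 100 genes or over 6% mitochondrial UMIs were dropped only before hashtag assignment by HTODemux (Seurat 5.3.0, quantile 0.99), which left out hashtags with under 100 UMIs in a library. Of 11360 barcodes 4449 were singlets, 2462 doublets and 4449 negative, and 2993 singlets belonged to listed mice. Groups of mice come from the deposited hashtag table. The top hashtag of an astrocyte had 4 UMIs at the median and the next one 2 (18 and 3 in pericytes).

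UMI counts were summed per library or mouse and tested with edgeR 4.0.16 (R 4.3.3, quasi-likelihood, TMM, default count filter, Benjamini-Hochberg at 0.05), with library as a block for class and *Adra1a* status, since both arms come from the same pooled cells. Libraries are pools of mice. With the block, p-values measure the spread of within-library differences over 3 pools, with dispersions shared over genes. They do not measure the spread between mice. Fits of behavioural groups took mice as replicates with library as a term, so their log2 differences are adjusted for library. Alternatives used DESeq2 1.42.0, other filters, thinned cells and left-out samples. Exact permutation tests were two-sided. Of the pathway genes called between classes, the 5 with the largest change in each direction were named, for *Adra1a* status all those called, and between groups the members with unadjusted p under 0.05. Intervals and the floor of 3 counts (95%) cover counting error only. Sequences are RefSeq's. Scripts were tested on simulated data. Genes whose pattern over mice was most like that of a member were named for 2 of the 3 members with the highest astrocyte CPM, and those for *Plcb1* are not reported here.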

Additional observations from a re-analysis of the deposited data

Results flagged for a closer look

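Of 56 sets of 4 mice (member, class and group), 2 held a mouse far from the other 3 by Dixon's criterion for 4 values (gap over range), and chance gives about 1 in 20. Astrocyte *Plcd4* was at 181 CPM in FR mouse 2 and at 202.5, 203.5 and 204.8 CPM in the other FR mice, a gap of 0.907 of the range. Pericyte *Atp2a2* was at 348.1 CPM in FR mouse 4 and at 247.9, 255.2 and 263.8 CPM in the other FR mice, a gap of 0.841 of the range.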

How the results depend on the processing

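The 8 member calls between astrocytes and pericytes held under each alternative run, including mice as replicates, which tested fewer genes (6267 called, 50 of them pathway genes). *Itpr3* entered the edgeR fits without the count filter (log2 difference −5.4, adjusted p = 3.9e-06) and without library 2, and was called in both. It had 2 UMIs in astrocytes and 16 in pericytes over all libraries. *Ryr3*, not called, turned sign without the count filter (0.019) and without hashtag doublets (0.11), and ran from −0.24 to 0.23 when 1 library was left out. The *Plcb1* share difference was 71.95 points without pericytes that had smooth muscle markers and 71.43 points in thinned cells. For *Adra1a* status, the fit with no replicate block called 2 members, 1220 genes and 9 pathway genes. DESeq2 called 2, 714 and 3, thinned cells 1, 723 and 9, the added match on ribosomal share 0, 26 and 1, and mice as replicates 0, 0 and 0, and without matching on UMIs 33 pathway genes were called. Leaving out 1 library gave 3 to 4 members, 1347 to 2008 genes and 12 to 17 pathway genes, and *Itpr2* lost its call without library 3 (0.096). Of the calls, 40.9% were higher in positive cells, against 28.0% with no replicate block.

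The match on ribosomal share turned the sign of *Itpr2* (−0.0085), *Gnaq* (−0.035), *Gna11* (0.034), *Plcb1* (−0.037), *Plcb4* (−0.026) and *Plcd4* (−0.061). *Gna11* was 0.035 in thinned cells, *Plcd4* −0.085 with mice as replicates and −0.0031 to 0.049 when 1 library was left out, and *Ryr3* 0.020 without matching on UMIs and −0.67 to 0.19 when 1 library was left out. Between behavioural groups, genes called in astrocytes were 2 by DESeq2, 29 without the count filter and 0 to 3 with 1 mouse left out. In pericytes they were 94 in the reported fit, 39 by DESeq2, 30 at a hashtag quantile of 0.95 and 56 to 117 with 1 mouse left out, with 0 to 1 member calls (*Plcb4* without NoFC mouse 4). The cause of these changes was not tested. The hashtag fit that required a stricter margin was not run for all pairs in astrocytes. Depth limits *Itpr3* and *Ryr3*, and pericyte *Plcb1* and *Plcd4* cannot be told apart from background.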
